A study of Mus musculus with 12 samples.

Results

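The Hox genes of clusters A to D were followed in RNA sequencing libraries of sorted mouse fetal liver cells. Members were all protein-coding genes of the mouse annotation (GENCODE, GRCm38) named Hoxa, Hoxb, Hoxc or Hoxd with a number, which gave 39 genes, all of them present among the 32285 identifiers of the hematopoietic stem cell (HSC) table and the 56980 of the macrophage table. Cluster A held 11 genes (chromosome 6, minus strand), cluster B 10 (chr11:96194316-96368256, 173.9 kb, plus strand), cluster C 9 (chr15:102921103-103036852, 115.8 kb, plus strand) and cluster D 9 (chr2:74668310-74765142, 96.8 kb, plus strand). The 12 libraries came from embryos at E14.5, a stage at which blood formation takes place in the liver, whose Jag1 gene, encoding the Notch ligand Jagged1, was floxed on both alleles, in Cre negative and Cre positive embryos alike. The groups were Vav-Cre negative and Vav-Cre positive HSCs (live CD45+ lineage-negative cKit+ Sca1+ CD48- CD150+ cells, strain C57BL/6) and Vav-Cre negative and Vav-Cre positive CD169+ macrophages, with 3 libraries each. The labels give the genotype of the Cre negative HSCs as WT although their titles name the floxed allele, and no label states that libraries of 1 group are from different embryos, so that p-values measure only the spread between these libraries. Vav regulatory sequences drive Cre mainly in blood cells, and recombination was followed here through Jag1 RNA alone. The comparison of genotypes is aimed at the effect of deleting Jag1 in the blood lineage. It compares libraries by their Cre label, and whether they had less Jag1 RNA is given below.

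Hox genes encode transcription factors with a homeodomain that give cells of the embryo their position along the body axis. They lie in 4 clusters in which genes of the same number in different clusters, called paralogues, descend from a common ancestor, and in each cluster the low-numbered (anterior) genes lie at the 3′ end and the high-numbered (posterior) genes at the 5′ end. HOX proteins bind DNA together with the PBX and MEIS cofactors, MLL (Kmt2a) with menin (Men1) keeps the clusters active, and Polycomb complexes keep them silent. In blood, genes of clusters A and B are best known in stem and progenitor cells, where Hoxa9 and Meis1 sustain self-renewal and Hoxb4 can expand HSCs.

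Jag1 itself was checked first, in CPM, reads relative to the library total scaled between libraries of a sort. In macrophages it was 51.7, 20.7 and 25.9 CPM in Cre negative libraries 1 to 3 and 0, 10.4 and 6.67 CPM in the Cre positive ones, with no overlap (log2 fold change -2.51, unadjusted p = 0.0946, edgeR). In HSCs it was 6.52, 6.86 and 1.15 CPM against 10.5, 0 and 19.4 CPM. The Cre positive HSC libraries thus did not have less Jag1 RNA as a group, and Cre positive HSC refers below to the library's label. Depth was 51982064 to 77463770 reads per HSC library, 17230019 to 24658205 per Cre negative macrophage library and 2602934 to 5366990 per Cre positive one. The floor used here, 3 reads, equalled 0.0385 to 0.0561 CPM in HSC libraries, 0.136 to 0.171 in Cre negative and 0.513 to 1.06 in Cre positive macrophage libraries, and covers counting error only, since amplified reads are not independent molecules. Defining markers of each sort were present: all 13 HSC markers had reads in every HSC library and all 12 macrophage markers in every macrophage library. The macrophage list does not tell the sorts apart by presence, since HSC libraries lacked none of its 12 genes either. Nor did they lack any of the 12 hepatoblast markers. Macrophage markers made up 0.133% to 0.258% of HSC reads, while the share of hepatoblast markers was 0.189% to 0.371%. Both ranges overlapped that of the 13 HSC markers. So did that of the neutrophil and early myeloid markers, at 0.0937% to 0.409% of HSC reads. All 12 sinusoidal endothelial markers were also read in every library of both sorts, making up 0.545% to 1.13% of what was counted in HSCs and 0.814% to 1.71% in macrophages, more than the HSC list in HSCs (0.233% to 0.371%) and the macrophage list in macrophages (0.189% to 0.550%).

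Promoters of cluster A show the range of the data, from genes with many reads to one with none in HSCs. Each window holds 300 bases, most of them before the gene's start (RefSeq, GRCm38.p6, minus strand, written 5′ to 3′). For Hoxa9 the whole window lies inside the gene span used for counting (chr6:52223100-52231089), unlike those of the other 3 genes shown. The reference table matched 22 of the 39 genes, with 24 windows. Hoxa5 (chr6:52204538-52204837) had the highest mean level per length in HSCs, Hoxa9 (chr6:52227321-52227620) was the next, Hoxa11 (chr6:52245761-52246060), on the posterior side, had no read there, and Hoxa2 (chr6:52164782-52165081) had the smallest p between macrophage genotypes. Capitals mark matches on either strand to 4 motifs: TGACAG, a MEIS core; TGATNNAT, a PBX-HOX site; GGGCGG, the GC box; and TATAAA, the TATA box.
Hoxa2: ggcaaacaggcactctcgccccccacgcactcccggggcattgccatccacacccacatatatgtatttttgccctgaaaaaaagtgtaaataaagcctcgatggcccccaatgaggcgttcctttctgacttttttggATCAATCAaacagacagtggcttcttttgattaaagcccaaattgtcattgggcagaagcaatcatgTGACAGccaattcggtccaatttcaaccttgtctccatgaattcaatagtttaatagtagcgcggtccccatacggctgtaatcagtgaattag
Hoxa5: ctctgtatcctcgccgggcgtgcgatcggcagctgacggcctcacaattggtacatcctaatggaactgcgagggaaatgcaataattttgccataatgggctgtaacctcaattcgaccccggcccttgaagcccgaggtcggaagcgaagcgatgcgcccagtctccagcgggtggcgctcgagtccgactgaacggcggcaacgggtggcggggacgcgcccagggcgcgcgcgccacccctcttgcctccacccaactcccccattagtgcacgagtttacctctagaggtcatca
Hoxa9: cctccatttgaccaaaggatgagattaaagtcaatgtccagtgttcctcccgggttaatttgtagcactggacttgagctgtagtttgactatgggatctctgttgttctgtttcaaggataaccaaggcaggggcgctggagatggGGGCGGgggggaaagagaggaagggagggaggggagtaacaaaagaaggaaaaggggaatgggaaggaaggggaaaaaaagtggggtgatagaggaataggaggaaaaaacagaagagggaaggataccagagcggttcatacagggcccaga
Hoxa11: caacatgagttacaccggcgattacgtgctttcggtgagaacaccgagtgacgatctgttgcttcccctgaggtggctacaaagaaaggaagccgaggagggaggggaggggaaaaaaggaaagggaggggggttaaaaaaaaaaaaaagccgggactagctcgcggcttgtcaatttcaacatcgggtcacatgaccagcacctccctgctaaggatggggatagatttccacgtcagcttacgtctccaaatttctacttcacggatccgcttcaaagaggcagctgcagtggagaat
The Hoxa2 window held 1 PBX-HOX match (ATCAATCA, the reverse strand) and 1 MEIS match that did not overlap it, the Hoxa9 window held 1 GC box and the other 2 windows held none of the 4. Of 32851 mouse promoter windows of this length, 8.85% held the PBX-HOX letters, 19.2% the MEIS core, 35.7% the GC box and 13.6% the TATA box. Of the 24 Hox windows, 4, 2, 10 and 4 held them. CpG pairs numbered 29 in the Hoxa5 window, 15 in Hoxa11, 9 in Hoxa2 and 4 in Hoxa9, against a median of 7.0 over all windows. Hoxa11, without reads in HSCs, thus lay between Hoxa5 and Hoxa9 in this count.

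In HSCs, Hox transcripts came almost wholly from groups 1 to 10 of clusters A and B. A gene was called counted where at least 2 of the 3 libraries of a genotype held 3 reads or more, and 16 of 39 genes were: 9 of 11 in cluster A (among them Hoxa5, Hoxa7, Hoxa9 and Hoxa10), 6 of 10 in cluster B (Hoxb2, Hoxb3, Hoxb4, Hoxb5, Hoxb7 and Hoxb9), Hoxc6 in cluster C and none in cluster D. Cluster A gave 70.0% to 93.1% of Hox CPM in each of the 6 libraries, cluster B 6.26% to 29.8%, cluster C at most 1.19% and cluster D at most 0.0734%. The 9 genes of groups 11 to 13 had 0 reads among the 389887979 of the 6 libraries. Another 8 genes had no read: Hoxc5, Hoxc8 and Hoxc10, and Hoxd1, Hoxd3, Hoxd8, Hoxd9 and Hoxd10. Another 5 genes had reads in 1 library alone, namely 77 for Hoxc9, 26 for Hoxb6, 12 for Hoxd4, 6 for Hoxc4 and 1 for Hoxb1.

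**Figure D1:**
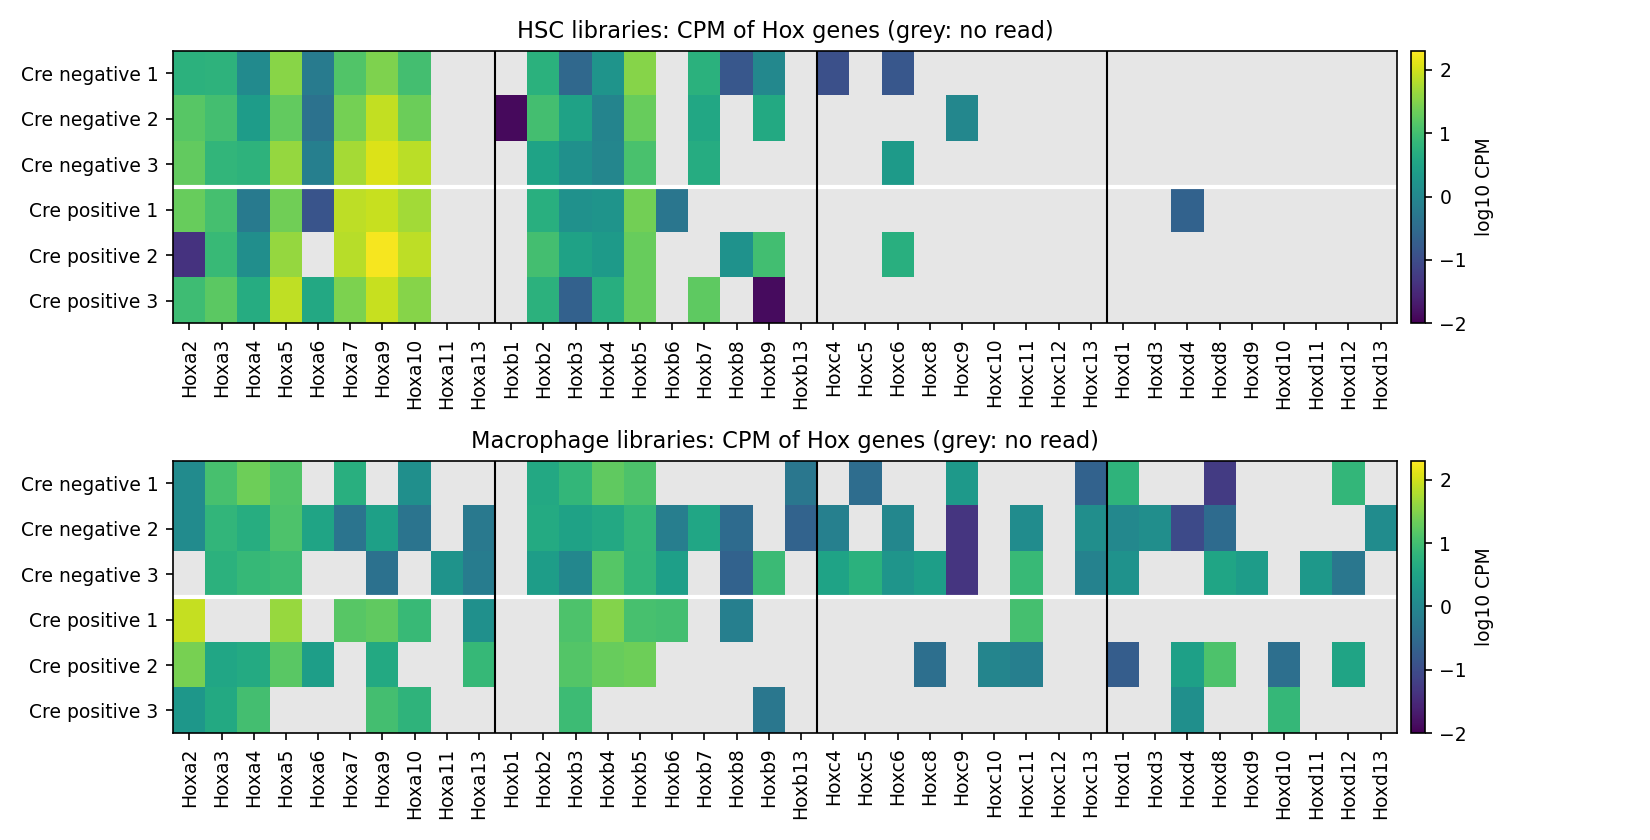
Level of Hox genes (columns, in cluster order, black lines between clusters) in each library (rows), as log10 CPM, for HSCs above and macrophages below. Grey cells had no read. In HSCs colour ends at Hoxa10 in cluster A, and in macrophages reads are scattered over all 4 clusters, few genes having them in every library.

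Within cluster A of HSCs the edge was sharp: Hoxa10, with 553 to 5138 reads in every library, lies next to Hoxa11, with 0. Levels between genes are compared per kilobase of merged exon. Hoxa5, a gene of lung and axial development, had 20.96 ± 11.1 CPM per kb (SD, n = 6 libraries, range 9.95 to 41.4). Hoxa9, the stem cell gene and leukaemia oncogene, had 17.1 ± 8.63, Hoxa7, its neighbour, 15.4 ± 8.82, and Hoxa10, which like it acts in progenitors, 13.2 ± 7.95. The spread of these 4 overlapped throughout, and the first place went to Hoxa5 in 3 libraries, to Hoxa9 in 2 and to Hoxa7 in 1. Hoxb5, which has been used to mark long-term HSCs, ranked 5 with 7.74 ± 2.61 CPM per kb and led cluster B. Hoxa2, which patterns the hindbrain, followed with 6.48 ± 4.41. Hoxb4 lay at 0.803 ± 0.587 CPM per kb, with a highest library (1.93) below the lowest of Hoxa5, Hoxa9, Hoxa7, Hoxa10 and Hoxb5 (9.95, 5.23, 4.76, 3.15 and 4.13). Among the protein-coding genes with enough reads to be tested in HSCs, Hoxa5 stood at percentile 75.1 of the mean level per length, Hoxa9 at 70.8 and Hoxb4 at 10.1.

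**Figure D2:**
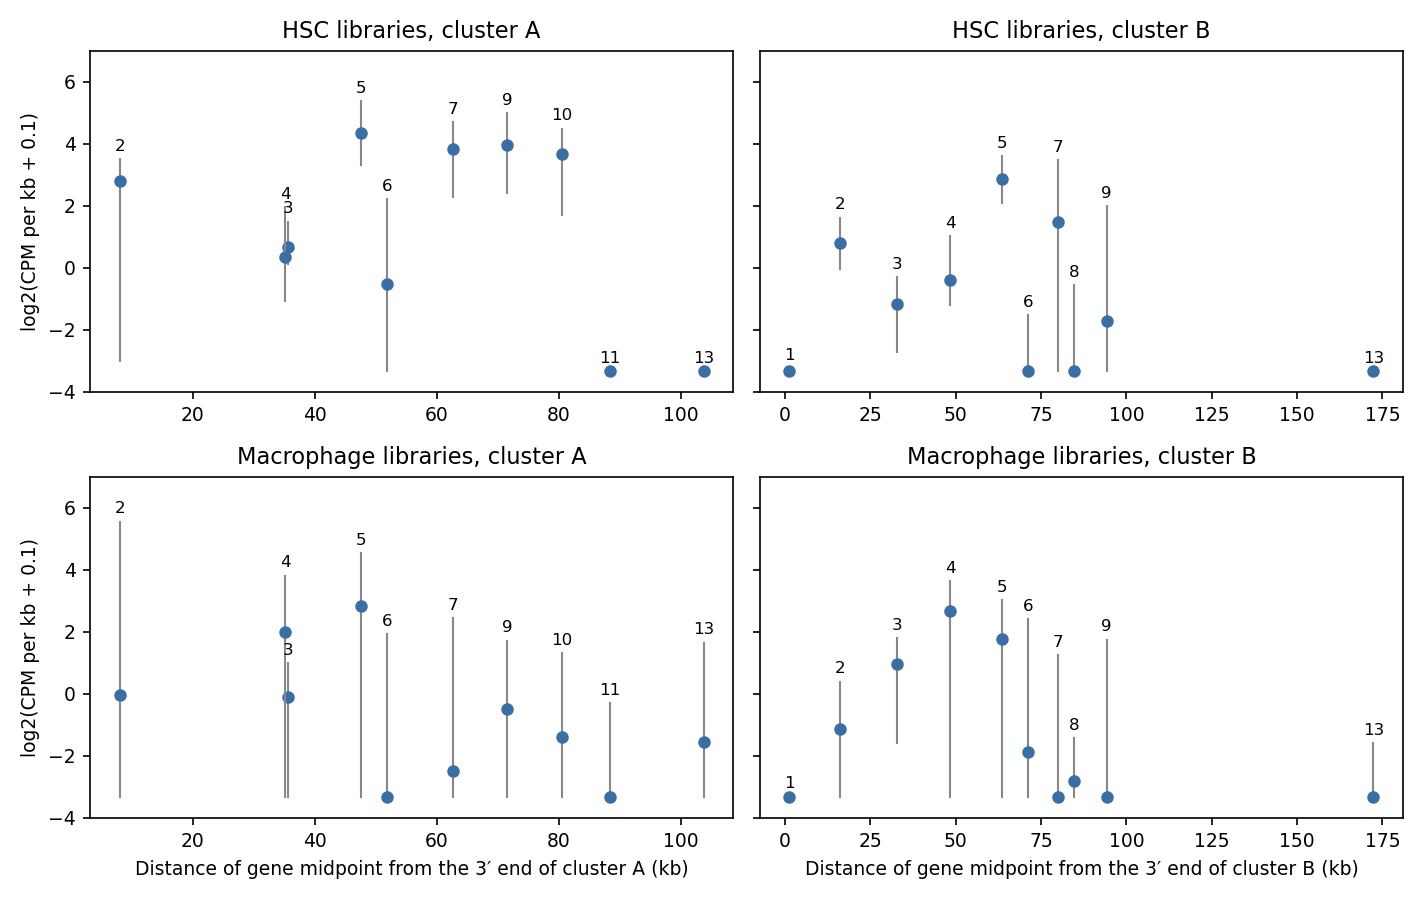
Level of genes of clusters A (left) and B (right) against the distance of its midpoint from the 3′ end of the cluster in kb, for HSCs (top) and macrophages (bottom). Points are medians and grey lines the range of 6 libraries, in log2(CPM per kb + 0.1), with the paralogue number above. In HSCs, group 5 is the highest by median in both clusters, and Hoxa11, Hoxa13, Hoxb1 and Hoxb13 lie at or near the level of no reads. Within cluster B, Hoxb6 and Hoxb8 also have a median of 0, with reads in 1 and 2 of 6 libraries.

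Paralogues of 1 group were unequal. Group 5 took 22.0% to 49.9% of Hox CPM per kb in HSC libraries, group 7 13.7% to 26.6% and group 9 9.25% to 28.6%. In group 3 the 3 genes together took 1.31% to 3.34%, and in group 8 at most 0.473%. In group 4, Hoxa4 and Hoxb4 were counted, and Hoxc4 and Hoxd4 were not. In group 6, Hoxa6 and Hoxc6 were counted and Hoxb6 was not, with Hoxc6 at 0.149, 0 and 2.21 CPM in Cre negative and 0, 5.08 and 0 CPM in Cre positive HSCs.

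Between HSC genotypes no Hox gene passed the test. Of 15 members with enough reads to be tested, 0 had an adjusted p under 0.05 (edgeR quasi-likelihood; background 0.0% of 13962 genes called), 0 had an unadjusted p under 0.05 (background 6.39%) and DESeq2 called 0 (background 0.953%). Log2 fold changes, Cre positive over negative, were above 0 for 10 of 15 members against 49.7% of all genes, with a median of 0.60 against -0.01. Between the same libraries, 10 of 10 tested neutrophil and early myeloid markers were higher (median log2 fold change 0.63), and 10 of 12 stellate and mesenchymal markers (-0.86) and 9 of 12 sinusoidal endothelial markers (-0.24) lower, with 0 passing the adjusted threshold. Their part in the Hox values was not tested. The summed Hox level was 161, 226 and 345 CPM in Cre negative libraries (mean 244 ± 93.2, SD, n = 3) and 305, 427 and 307 CPM in Cre positive ones (347 ± 69.9), a ratio of 1.42 with overlapping groups. Members that passed only through a group where they were high had to differ, so the counts describe the tested members and not all 39.

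The late genes of cluster A had the highest CPM and the widest spread. Hoxa9 was 29.2, 79.9 and 117 CPM in Cre negative and 85.8, 175 and 86.3 CPM in Cre positive HSCs, with a log2 fold change of 0.62 (SE 0.52, adjusted p = 0.945, edgeR). Hoxa7 was 13.7, 24.7 and 53.5 CPM against 74.3, 70.2 and 28.7 CPM (0.91, SE 0.59, adjusted p = 0.879, edgeR). Hoxa10 was 10.3, 21.3 and 70.8 CPM against 50.3, 73.1 and 32.8 CPM (0.61, SE 0.69, adjusted p = 0.983, edgeR). All 3 were lowest in Cre negative library 1, and the groups overlapped, with Cre negative library 3 inside the Cre positive range. Without that library the log2 fold change was 1.72 for Hoxa10 (unadjusted p = 0.0230, adjusted p = 0.744, edgeR), 1.58 for Hoxa7 (unadjusted p = 0.0332, adjusted p = 0.744, edgeR) and 1.08 for Hoxa9 (unadjusted p = 0.0941, adjusted p = 0.884, edgeR). Without Cre negative library 1 instead, it was 0.17, 0.56 and 0.23 for Hoxa10, Hoxa7 and Hoxa9 (unadjusted p = 0.789, 0.373 and 0.598, adjusted p = 0.99966 for each, edgeR).

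Of these genes, Hoxa10 ran opposite to the endothelial markers, and Hoxa9 and Hoxa7 did so in part. In order of falling endothelial share, from Cre negative library 1 (1.13% of reads) through Cre negative 2 (0.790%), Cre positive 3 (0.739%), Cre positive 1 (0.613%) and Cre negative 3 (0.558%) to Cre positive 2 (0.545%), Hoxa10 was 10.3, 21.3, 32.8, 50.3, 70.8 and 73.1 CPM. It was higher at every step, an order that 23 of 13962 tested genes (0.165%) and 1 of 15 Hox genes followed. Hoxa9 in that order was 29.2, 79.9, 86.3, 85.8, 117 and 175 CPM, with 1 near-tie out of order, and Hoxa7 was 13.7, 24.7, 28.7, 74.3, 53.5 and 70.2 CPM. Hoxa5 had no such order (34.4, 18.7, 77.6, 23.6, 40.9 and 40.9 CPM), nor did Hoxb5, which was highest in the library richest in endothelial markers. The HSC marker list varied too, at 0.235%, 0.273%, 0.233%, 0.307%, 0.371% and 0.291% of reads in the same library order. Neutrophil and early myeloid markers took 0.121%, 0.159%, 0.0937%, 0.237%, 0.183% and 0.409% in that order, highest in Cre positive 2 like Hoxa9 and Hoxa10. The order by endothelial share was noticed after the values were seen. The part of endothelial RNA, or of the HSC or neutrophil share, in these levels was not tested. In bulk libraries, fewer cells of a type and less RNA per cell cannot be told apart.

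**Figure D3:**
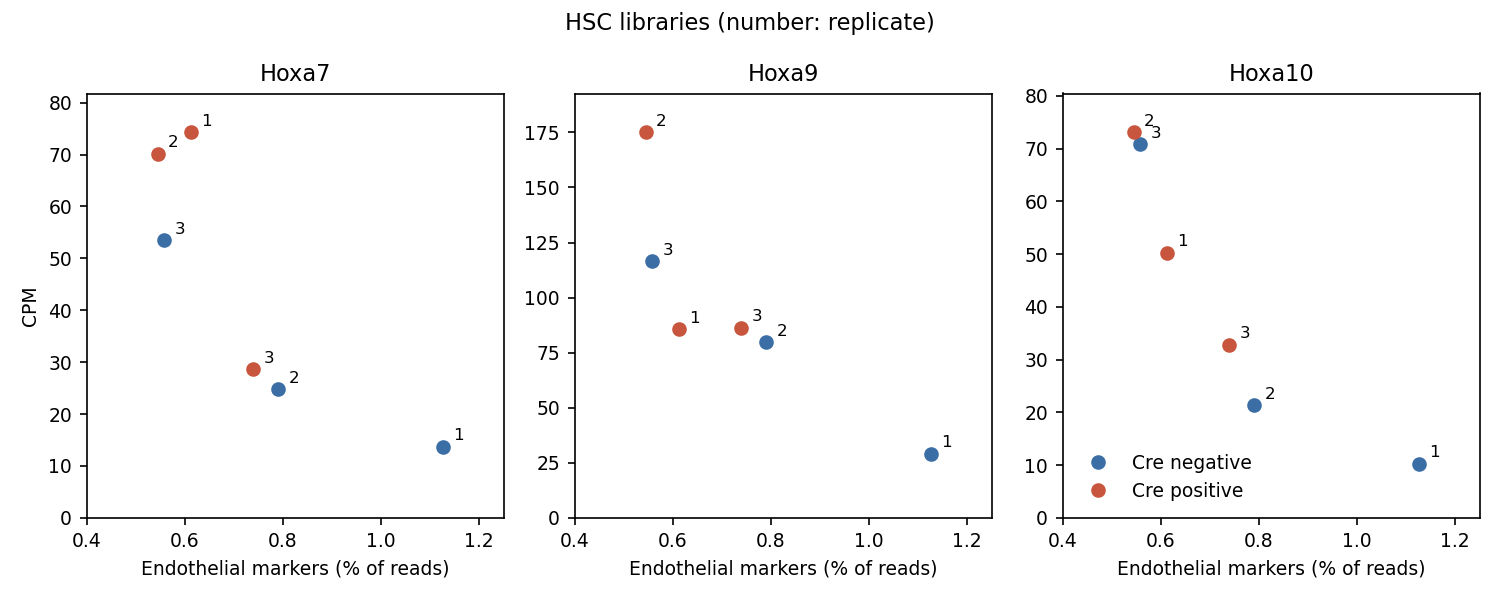
Hoxa7, Hoxa9 and Hoxa10 (CPM, linear axes from 0) against the summed share of 12 sinusoidal endothelial markers (% of reads, axis from 0.4) in the 6 HSC libraries, coloured by genotype and numbered by replicate. For Hoxa10 each library with a lower endothelial share has a higher level.

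The other HSC members were lower or patchier. Hoxa5 was 34.4, 18.7 and 40.9 CPM against 23.6, 40.9 and 77.6 CPM (0.60, SE 0.53), and Hoxb5 was 33.6, 19.7 and 11.5 CPM against 24.5, 20.1 and 19.9 CPM (-0.01, SE 0.54), both with overlap. Hoxa3, which acts in pharyngeal organs, was 5.98, 10.2 and 6.77 CPM against 10.7, 7.94 and 16.2 CPM, and Hoxb2, a hindbrain gene, 5.68, 10.2 and 3.09 CPM against 5.21, 10.3 and 5.86 CPM, again with overlap. Both share exon with antisense RNAs (20.6% and 27.3% of their exon), and since the kit does not mark strand, reads of the partners cannot be told apart.

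Single libraries carried several differences. Hoxa2 was 5.86, 15.5 and 18.7 CPM in Cre negative HSCs and 19.8, 0.0427 and 9.07 CPM in Cre positive ones, where library 2 held 3 reads against 1061 and 666. Hoxb7 was 5.55, 3.76 and 4.58 CPM in the Cre negative libraries and 0, 0 and 16.9 CPM in the Cre positive ones. Of the 15 tested members, 1 was higher without overlap (background 6.37%), Hoxb4, named after its values were seen, at 1.68, 0.861 and 0.958 CPM against 1.70, 2.21 and 4.96 CPM (1.34, SE 1.68, adjusted p = 0.992, edgeR). Among genes with 10 or more reads in a library, 8 of 19 Hox genes (42.1%) had 0 in another Cre positive HSC library. The background was 19.5% of protein-coding genes and 25.4% of all identifiers. In Cre negative HSC libraries 3 of 17 Hox genes (17.6%) had 0 in another, against 15.0% and 20.8%. These backgrounds were not matched for level.

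**Figure D4:**
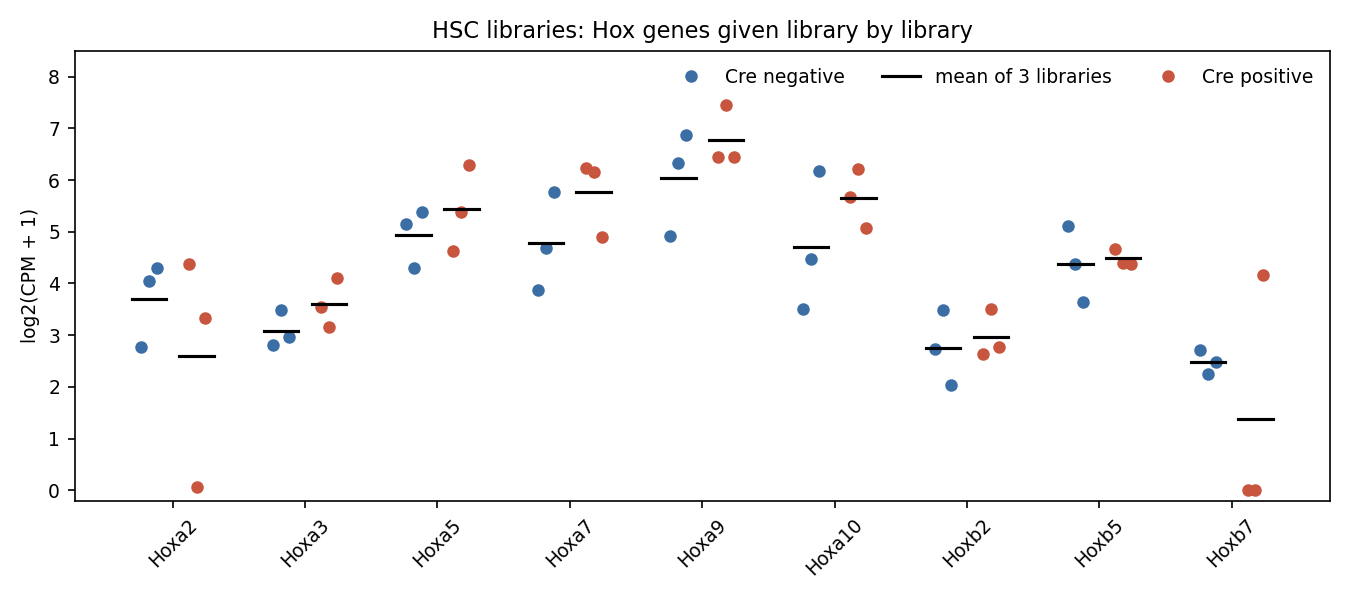
Hox genes described library by library in HSCs, as log2(CPM + 1), with 3 Cre negative (blue) and 3 Cre positive (red) libraries each and black lines at group means. The groups overlap for each gene shown, and Hoxa2 and Hoxb7 have Cre positive libraries at or near 0.

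The factors that work with Hox genes in HSCs were measured alongside. Meis1, the cofactor paired with Hoxa9, was 80.0, 157 and 280 CPM in Cre negative and 174, 146 and 175 CPM in Cre positive HSCs, lowest in Cre negative library 1 like Hoxa9. Kmt2a was 40.7, 56.7 and 55.7 CPM against 60.6, 160 and 224 CPM (1.54, SE 0.46, unadjusted p = 0.0102, adjusted p = 0.689, edgeR).

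Of the other regulators, Dot1l, the H3K79 methyltransferase, was 17.3, 21.1 and 18.4 CPM against 46.7, 39.4 and 63.4 CPM (1.40, SE 0.38, unadjusted p = 0.00614, adjusted p = 0.689, edgeR), Kmt2b, an MLL-family enzyme, had a log2 fold change of 2.03 (SE 0.77) and Asxl1, of the Polycomb list, of 1.13 (SE 0.36). Men1 was 134, 107 and 104 CPM against 139, 124 and 72.3 CPM, with overlap, and Pknox1, a MEIS relative, 55.9, 66.7 and 65.4 CPM against 43.5, 6.79 and 25.6 CPM (-1.31, SE 0.61). By list, 0 genes passed the adjusted threshold: 8 cofactors were tested, with 5 higher and 3 lower, 15 activating regulators with 10 and 5, 15 Polycomb genes with 7 and 8, and 11 genes flanking the clusters with 7 and 4. Noncoding genes within clusters A and B were higher in 7 of 7 tested with none called.

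Macrophage libraries held reads of more Hox genes, spread over all 4 clusters and at low level. Of 39 genes, 25 were counted: 9 in cluster A, 7 in B, 5 in C and 4 in D. With a minimum of 1 CPM in place of 3 reads, 15 were counted, against 14 in HSCs. Reads were found for 37, all but Hoxb1 and Hoxc12, yet only Hoxb3 had reads in all 6 libraries and 7 genes had them in 1 alone. Cluster A gave 31.3% to 72.7% of Hox CPM per library, B 14.3% to 38.6%, C 0% to 22.0% and D 0% to 13.03%. Genes of groups 11 to 13 gave 0% to 13.6%, with 630 reads over 8 of 9 genes. The 2 tables were counted separately. Mitochondrial ribosomal RNA made up 6.84% to 12.7% of counted reads in a macrophage library and 0% in an HSC library. A gene without a row in a table also gives 0%, so the 0% is no measure of this RNA in HSCs. Levels of both sorts are therefore given side by side, untested. Genotype effects alone were compared between sorts, by the interaction of genotype and sort.

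With each library thinned to the 2602934 reads of the shallowest, 12.5 to 15.5 Hox genes per library were expected in HSCs, 15.97 to 23.4 in Cre negative macrophages and 9.86 to 17.9 in Cre positive ones. Both sorts counted 13 genes in common (81.2% of those of HSCs, 52% of those of macrophages). Counted in HSCs alone were Hoxa6, Hoxb7 and Hoxb9, and in macrophages alone 12: Hoxa13, Hoxb6, Hoxb8, Hoxb13, Hoxc4, Hoxc5, Hoxc11, Hoxc13, Hoxd1, Hoxd4, Hoxd8 and Hoxd12. Most of these were patchy. Hoxd12, a limb gene, had 125, 0 and 11 reads in Cre negative and 0, 18 and 0 in Cre positive macrophages, and Hoxc11 had 0, 27 and 171 against 31, 4 and 0. Of genes with 10 or more reads in a library, 20 of 32 Hox genes (62.5%) had 0 in another Cre negative macrophage library. The background was 28.7% of protein-coding genes and 49.8% of all identifiers. In Cre positive macrophage libraries 16 of 19 Hox genes (84.2%) had 0 in another, against 42.4% and 56.5%. These backgrounds, too, were not matched for level.

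Other liver cells were also measurable in this sort. Stellate and mesenchymal markers (12 genes) took 0.180%, 0.0279% and 0.0339% of reads in Cre negative macrophage libraries and 0.0204%, 0.0155% and 0.0132% in Cre positive ones, without overlap. Of the 12, 4 (Dcn, Pdgfrb, Des and Lhx2) had 0 reads in some library. Hepatoblast markers took 0.398% of Cre negative library 1 and 0.0470% to 0.0914% of the others. Cluster C genes were at 2.68, 4.31 and 21.6 CPM in Cre negative libraries, highest in library 3 and not in library 1, and at 10.96, 2.01 and 0 CPM in Cre positive ones. The part of these cells in the Hox reads was not tested.

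Between macrophage genotypes Hoxa2 stood apart among the Hox genes, without passing the main test. It was 1.20, 1.19 and 0 CPM in Cre negative and 83.1, 26.1 and 1.88 CPM in Cre positive libraries, from 21, 26 and 0 and from 235, 143 and 11 reads. Every Cre positive library was above every Cre negative one, with most of the difference in libraries 1 and 2. The log2 fold change was 5.52 (SE 1.80, unadjusted p = 0.00702, adjusted p = 0.773, edgeR), while DESeq2 gave an adjusted p of 0.0200 and edgeR without Cre positive library 3 one of 0.00857. Without Cre positive library 1 the log2 fold change was 4.07 (unadjusted p = 0.116, adjusted p = 0.596, edgeR). Hoxa2 shares 15.0% of its exon with Gm28308 on the same strand. In HSCs its log2 fold change was -0.47 (SE 1.51), and the difference of the effects, macrophage minus HSC, was 5.98 (SE 2.47, unadjusted p = 0.0242, adjusted p = 0.535, edgeR).

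Hoxb2 lay the other way. It was 3.87, 4.22 and 2.45 CPM in Cre negative macrophages and 0 in all 3 Cre positive ones (unadjusted p = 0.0248, adjusted p = 0.773, edgeR). The Cre negative mean was 4.97 times the mean floor of 3 reads in the Cre positive libraries (0.707 CPM). That ratio covers counting error only, and many Hox genes were at 0 in single Cre positive libraries. The floor of the Cre positive libraries is higher because they are shallower. Hoxb3os, an antisense RNA that covers 27.3% of the Hoxb2 exon and 52.9% of that of Hoxb3, was 0.228, 3.67 and 5.08 CPM against 1.41, 0.183 and 0 CPM. The interaction for Hoxb2 had an unadjusted p of 0.0273 and an adjusted p of 0.547 (edgeR). Over the 23 Hox genes tested for the difference between sorts, 0 passed (background 0.0696% of 20128 genes), while DESeq2 called 2, Hoxb2 and Hoxc6 (background 3.71%).

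Of 13 Hox genes tested in macrophages, 0 had an adjusted p under 0.05 (edgeR; background 0.0% of 17806), 2 had an unadjusted p under 0.05 (background 5.42%), and DESeq2 called 1 (background 0.343%). The log2 fold change was above 0 for 9 of 13 against 43.9% of all genes, with a median of 0.50 against -0.16. Cell type markers shifted between the same libraries, with 0 passing the adjusted threshold: 11 of 12 macrophage markers were lower (median log2 fold change -1.03), 11 of 12 sinusoidal endothelial markers higher (0.27) and 12 of 12 stellate and mesenchymal markers lower (-2.50). Their part in the Hox values was not tested. Groups did not overlap for 3 higher genes, Hoxa2, Hoxa9 and Hoxb3 (background 2.27%), and for 3 lower genes, Hoxb2, Hoxa3 and, named after its values were seen, Hoxd1 (background 11.8%).

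Hoxa9 was 0, 2.80 and 0.408 CPM in Cre negative and 17.7, 4.02 and 10.4 CPM in Cre positive macrophages (3.31, SE 2.37, unadjusted p = 0.181, edgeR). Hoxb3, a broadly expressed anterior gene, was 6.95, 3.03 and 0.997 CPM against 12.4, 14.3 and 8.89 CPM (1.69, SE 1.90, unadjusted p = 0.384, edgeR). Each of the 3 Cre positive libraries was above the 3 Cre negative ones for both genes. Hoxa3 was 11.4, 6.88 and 5.89 CPM against 0, 3.47 and 4.10 CPM, and Hoxd1 was 6.26, 1.01 and 1.59 CPM against 0, 0.183 and 0 CPM. Hoxd1 had 110, 22 and 35 reads in the Cre negative libraries and 1 read over the Cre positive ones, whose library 1 has a floor of 1.06 CPM, above the lowest Cre negative value.

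**Figure D5:**
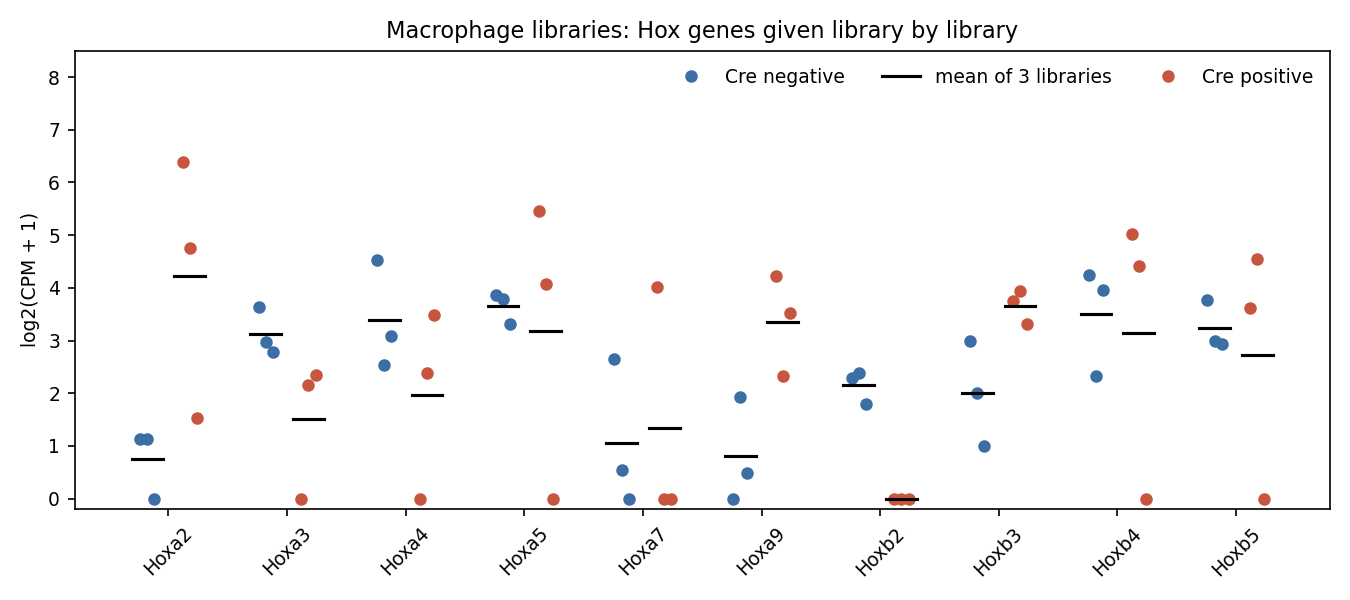
Hox genes described library by library in macrophages, as log2(CPM + 1), with 3 Cre negative (blue) and 3 Cre positive (red) libraries each and black lines at group means. Hoxa2, Hoxa9 and Hoxb3 are higher and Hoxa3 and Hoxb2 lower in Cre positive libraries without overlap, and each of the other 5 genes has at least 1 Cre positive library at 0.

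The other genes given library by library overlapped between genotypes, and each had a Cre positive library at 0. Hoxa5 was 13.5, 12.8 and 8.93 CPM against 43.1, 15.7 and 0 CPM. Hoxb4 was 17.8, 3.99 and 14.55 CPM against 31.5, 20.3 and 0 CPM, and Hoxb5 was 12.6, 6.93 and 6.66 CPM against 11.3, 22.3 and 0 CPM. All 3 were at 0 in Cre positive library 3 and above or within the Cre negative range in the other 2. In that library Meis1 was 0.171 CPM from 1 read, against 15.2 and 46.2 CPM in Cre positive libraries 1 and 2 and 62.0, 14.9 and 18.5 CPM in Cre negative ones. Hoxa4 was 22.1, 4.82 and 7.52 CPM against 0, 4.20 and 10.3 CPM, and Hoxa7, too sparse to test, 5.24, 0.459 and 0 CPM against 15.2, 0 and 0 CPM. Hoxa3 and Hoxa4 were thus at 0 in Cre positive library 1, the one in which Hoxa2, of the same cluster, was highest.

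Per length, Hoxa2 ranked first in macrophages (10.7 ± 18.6 CPM per kb, SD, n = 6), a place due to 2 libraries, before Hoxa5 (8.35 ± 7.75), Hoxb4 (5.72 ± 4.45), Hoxa4 (5.12 ± 4.81) and Hoxb5 (3.58 ± 2.69), whose ranges overlapped. By median, Hoxa5 (7.004 CPM per kb) and Hoxb4 (6.31) led, and Hoxa9, second in HSCs, had 0.611. The summed Hox level was 119, 67.1 and 97.9 CPM in Cre negative macrophages (94.7 ± 26.1, SD, n = 3) and 245, 147 and 65.7 CPM in Cre positive ones (153 ± 90.01), a ratio of 1.61 with overlap.

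Among partner genes in macrophages 0 passed the adjusted threshold. Pbx2, a cofactor, was 67.6, 67.4 and 61.4 CPM in Cre negative and 20.5, 27.0 and 18.5 CPM in Cre positive libraries (-1.57, SE 0.67, unadjusted p = 0.0320, adjusted p = 0.778, edgeR), without overlap. Skap1, which flanks cluster B, was 6.77, 4.27 and 5.62 CPM against 0 in all 3. Kmt2a was 345, 214 and 188 CPM against 254, 252 and 300 CPM and Men1 29.9, 19.9 and 26.2 CPM against 2.83, 20.6 and 38.8 CPM, both with overlap. Skap2, next to cluster A, had a log2 fold change of -1.002 (SE 0.55) and Rbbp5, an MLL complex subunit, of -1.08 (SE 0.64). Of 8 cofactors tested 2 were higher and 6 lower, of 16 activating regulators 7 and 9, of 15 Polycomb genes 3 and 12, and of 13 flanking genes 5 and 8.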

How the data were processed

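Both tables hold counts of reads per gene as the authors deposited them, without normalization, 1 table for each sort. Per the submitters' processing notes, the HSC table rests on STAR 2.7.6a and on featureCounts from Subread 2.0.1, with GRCm38 (mm10) as the genome. For macrophages these notes name mm10 alone. The aligner and counter of that table, and the strand settings of both, are not given in the sources. Libraries were made with a SMART-Seq v4 kit, per the labels' protocols. Gene names and exon lengths came from GENCODE M21. Of the identifiers, 50 (HSC) and 4855 (macrophage) had no name there, and 0 columns were left without a sample.

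Each sort was fitted on its own table in R 4.3.3 with edgeR 4.0.16 (filterByExpr, TMM, robust glmQLFit and glmQLFTest, Benjamini-Hochberg adjustment over 13962 and 17806 genes), and the difference between sorts as an interaction over 20128 shared genes. CPM uses TMM-scaled totals. The fit was tested on simulated data with large changes in genes of many reads and the same spread setting for every gene. The test therefore does not cover small changes, sparse genes or genes that varied more between libraries. Genes given library by library had a mean of at least 5 CPM in a group or an unadjusted p under 0.05. From the partner lists, Meis1, Kmt2a, Men1 and up to 4 genes of smallest p per sort were taken, plus noncoding genes overlapping a described member. Some genes that these rules take are not reported here. Members and lists were chosen with earlier results of these data known. Alternatives were DESeq2 1.42.0, other scalings and filters, a replicate block and leaving out each library. Leaving out libraries for the number of counted genes was added after seeing the data.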

Additional observations from a re-analysis of the deposited data

How the results depend on the processing

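Counts of Hox genes called were 0 in the main fits. DESeq2 gave 1 in macrophages (Hoxa2) and 2 for the difference between sorts, and leaving out Cre positive macrophage library 3 gave 1 (range over left-out libraries 0 to 1). With a minimum of 1 CPM in place of 3 reads, 15 Hox genes were counted in macrophages instead of 25, and leaving out 1 library gave 18 to 25, against 14 to 16 in HSCs for the main 16. The ratio of summed Hox CPM was 1.21 to 1.79 in HSCs and 1.125 to 2.07 in macrophages with 1 library left out. The cause of these shifts was not tested.

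Log2 fold changes changed sign for 7 described results. In HSCs, Hoxb5 turned to 0.0236 with DESeq2, 0.0149 with upper-quartile scaling and 0.0681 with library totals. Without 1 library, Hoxb5 ranged from -0.32 to 0.46 (above 0 without Cre negative 1, Cre positive 2 or Cre positive 3), Hoxa2 from -1.55 to 0.11 (above 0 without Cre positive 2), Hoxb2 from -0.20 to 0.70 (below 0, at -0.16 and -0.20, without Cre negative 3 or Cre positive 2), and Hoxb7 from -11.2 to 0.87 (below 0 without Cre positive 3, its 1 Cre positive library with reads). In macrophages, Hoxa5 ranged from -0.64 to 1.28 and Hoxb4 from -0.30 to 1.04 (both lowest without Cre positive 1), and Hoxb5 from -0.66 (without Cre positive 2) to 0.87. Another 178 gene values kept their direction and side of the threshold, and 2 of macrophage Hoxa2 passed it.

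Replicate numbers did not pair the libraries: same-numbered deviations correlated at 0.0211, -0.0001 and -0.0005 in HSCs and at 0.0366, 0.0084 and 0.0212 in macrophages, and not every library correlated best with its own number. With the replicate block, 0 Hox genes were called in either sort. Under it Hoxb5 was 0.12 and Hoxb7 -8.12 in HSCs, and Hoxa5 -0.60, Hoxb4 -0.0757 and Hoxb5 -0.87 in macrophages.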
